A study of Mus musculus with 55 samples.

Results

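Folate and serine synthesis enzymes were followed through mouse small cell lung cancers grown from gene-edited lung organoids. The 8 genes, Phgdh, Psat1, Shmt1, Shmt2, Mthfd2, Mthfd1l, Mthfd1 and Tyms, were found by symbol, and all 8 were present among the 15479 genes of the table of PRMK and PRM tumours and among the 51912 genes of the table of sgMeis2 and sgScramble tumours. All 8 passed the filter on low counts in both tables. Peaks were read over each gene and 10 kb to each side.

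Of 55 samples in the series, 12 RNA libraries (4 groups of 3) and 26 peak libraries (13 groups of 2) were used. PRMK tumours carried guides against Trp53, Rb1 and Kmt2c and expressed Myc from the plasmid MSCV-Myc-IRES-Luc2, although the PRMK RNA labels list no Kmt2c guide. PRM tumours carried the Trp53 and Rb1 guides and the same Myc plasmid, from the lung for RNA and from liver or lung for peaks. The sgMeis2 tumours were PRMK with an added guide against Meis2, and the sgScramble tumours were PRMK with an added scrambled guide. All groups therefore share the Trp53 and Rb1 guides and the Myc plasmid. Organoids were injected into the left lung lobe of recipient mice, and tumour organoids were collected from these mice, so host cells can be present. Kmt2c encodes a methyltransferase that places methyl groups on lysine 4 of histone H3. No label ties replicates to different animals, and p-values therefore measure the spread between these libraries, which may be technical. Open chromatin was mapped by ATAC, in organoids taken after 3 days of culture. The marks H3K4me1, H3K4me2 and H3K4me3, and the protein KMT2C, were mapped by CUT&Tag, in which an antibody directs the cutting enzyme to its target. In PRMK, library 1 of H3K4me2, H3K4me3 and KMT2C lists the Meis2 guide as well and library 2 the scrambled guide. These 2 libraries are counted below as 1 group, and a difference between them cannot be told apart from the guide.

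The enzymes move single carbons from serine onto folate. PHGDH starts serine synthesis from a glycolytic intermediate and PSAT1 carries out the following step. SHMT1 in the cytosol and SHMT2 in mitochondria convert serine to glycine and load the freed carbon onto tetrahydrofolate. MTHFD2 and MTHFD1L oxidise and release that carbon as formate in mitochondria, and MTHFD1 takes formate up again in the cytosol. TYMS spends the carbon to make thymidylate, the DNA-specific nucleotide. Fast-growing tumours are known for high levels of these enzymes, and MYC and ATF4 are known to raise transcription of several of them.

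Stretches directly before the gene starts are given for 4 genes on which the results below turn: the entry enzyme Phgdh, the mitochondrial enzymes Shmt2 and Mthfd1l, whose marks around the start differed between PRMK and PRM, and Tyms, the 1 gene with a higher mean in PRMK. They come from RefSeq on GRCm38.p6, are written 5′ to 3′ along the strand of the gene, and end at the base before the first annotated transcript of the gene, so that no transcribed base is included. Capitals mark motifs searched on both strands. These are the NFY motif CCAAT, the GC box GGGCGG, the E-box CACGTG bound by MYC with MAX, and the core GCATGCGC of the NRF1 motif.
Phgdh, chr3:98339970-98340219, minus strand: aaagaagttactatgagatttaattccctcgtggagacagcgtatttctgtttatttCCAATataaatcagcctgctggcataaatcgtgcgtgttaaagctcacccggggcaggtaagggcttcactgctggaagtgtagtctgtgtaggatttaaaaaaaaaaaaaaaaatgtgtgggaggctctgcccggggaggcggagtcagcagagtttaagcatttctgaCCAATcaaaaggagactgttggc
Shmt2, chr10:127522445-127522694, minus strand: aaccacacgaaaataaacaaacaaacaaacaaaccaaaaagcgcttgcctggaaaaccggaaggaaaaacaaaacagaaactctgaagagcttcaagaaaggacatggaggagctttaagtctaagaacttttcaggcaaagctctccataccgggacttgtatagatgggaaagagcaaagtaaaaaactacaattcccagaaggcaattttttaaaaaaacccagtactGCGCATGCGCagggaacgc
Mthfd1l, chr10:3972825-3972891, plus strand: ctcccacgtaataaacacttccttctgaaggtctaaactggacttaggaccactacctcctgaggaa
Tyms, chr5:30073646-30073875, minus strand: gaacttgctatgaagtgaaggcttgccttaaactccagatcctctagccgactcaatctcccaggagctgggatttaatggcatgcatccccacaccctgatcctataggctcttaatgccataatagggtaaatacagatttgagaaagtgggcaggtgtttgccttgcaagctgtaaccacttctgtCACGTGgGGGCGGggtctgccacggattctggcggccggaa
The stretch of Phgdh holds the NFY motif 2 times. The stretch of Shmt2 holds the NRF1 core near its end, on both strands in overlap. The stretch of Tyms holds the E-box, closely followed by a GC box. The stretch of Mthfd1l before its first transcript is only 67 bases long and holds none of the motifs searched. Motifs were also counted over the 250 bases before the start used for each of the 8 genes. For Mthfd2 and Mthfd1 these bases lie wholly within an annotated transcript of the gene, and for Mthfd1l and Tyms partly. CCAAT was found in 5 of 8 and in 33.8% of 32851 promoters, and GGGCGG in 4 of 8 and 32.7%. CACGTG was found in 1 of 8 and 6.02%, and GCATGCGC in 1 of 8 and 2.26%. TGATGNAA, the core of the ATF4 composite motif, was found in 0 of 8 and in 3.45% of promoters, which says only that these letters are not in this window. In the printed stretches no marked motif overlaps a different one.

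The levels of the 8 transcripts relative to each other were read from the deposited TPM columns of the sgScramble libraries, which correct for gene length but sum over all genes to well under the usual total of TPM. Shmt2 (30.2 ± 2.44 TPM), Phgdh (28.0 ± 1.46 TPM) and Psat1 (26.2 ± 1.19 TPM) were the most abundant, and neighbours in this order did not differ beyond their spread (SD, n = 3). Mthfd2 followed at 20.3 ± 3.18 TPM. Mthfd1 was at 8.12 ± 0.442 TPM, Tyms at 5.59 ± 0.100 TPM, Mthfd1l at 4.87 ± 0.264 TPM and Shmt1 at 3.55 ± 0.279 TPM. The mitochondrial form of serine hydroxymethyltransferase thus stood above the cytosolic form on this scale, while the cytosolic Mthfd1 stood above Mthfd1l.

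To compare PRMK with PRM tumours, counts were scaled to library size (CPM, with TMM factors) and compared by library. Across all libraries, total counts were 12013253 to 24389041. Kmt2c was at 85.1, 84.4 and 105 CPM in PRMK and at 113, 187 and 67.6 CPM in PRM, so its transcript level does not separate the groups. The PRM libraries are numbered 4 to 6 in the table and 3 to 5 in the titles, and a stranded kit is named only for them, so preparation and genotype cannot be told apart here. PRM library 6 stands apart: its 7 neuroendocrine markers summed to 112 CPM, against 3520 to 5613 in PRMK and 2955 to 5349 in the other PRM libraries. Its 2 non-neuroendocrine markers summed to 71.7 CPM, against 3.76 to 5.03 in PRMK and 1.46 to 5.75 in the other PRM libraries. PRM library 5 stands apart in fibroblast markers, whose 5 genes summed to 2.58 CPM, against 62.7 to 275 in PRMK and 168 to 328 in the other PRM libraries. Lyz2, a gene of myeloid immune cells, was at 358, 427 and 536 CPM in PRMK, against 420, 1.35 and 78.2 CPM in PRM. Cd68, a macrophage gene, was at 16.4, 19.5 and 21.5 CPM in PRMK, against 19.2, 2.02 and 7.92 CPM in PRM. Both are low in PRM libraries 5 and 6, and PRM library 4 is close to PRMK. The 4 epithelial markers in the table summed to 517 to 2860 CPM in PRMK, and to 159, 48.6 and 2814 CPM in PRM. The median over genes of a chi-square between the counts of 2 libraries was 5.24 to 14.0 within PRMK and 53.4 to 56.8 within PRM. PRM library 4 was closer to the PRMK libraries (23.5 to 32.2) than to the other PRM libraries (53.4 and 55.6). The part of other cell types in the results below was not tested, and fewer cells of a type cannot be told apart from less RNA per cell.

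Of the 8 genes, 7 had a log2 fold change below 0 in PRMK over PRM (background 51.4% of all genes) and Tyms had one above 0 (background 48.6%). The median log2 fold change of the 8 (PRMK over PRM) was -1.04, against -0.02 over all 13914 genes tested. It was -0.32 without PRM library 6. No gene passed the edgeR quasi-likelihood test with Benjamini-Hochberg adjustment, so 0 of 8 were called beside a background of 0%. In that test 2384 of 13914 genes had an unadjusted p under 0.05, and the lowest adjusted p was 0.158. DESeq2 called 1 of 8, lower in PRMK, beside 8.76% of all genes called and 4.86% called lower. The edgeR likelihood ratio test also called 1 of 8, beside 3.26% called and 1.47% called lower. In 2 of 8 every PRMK library lay below every PRM library, beside 14.6% of all genes. The count also depends on PRM library 4. Without it edgeR called 2 of 8 (Mthfd1l and Mthfd1, both lower), beside 796 genes in all. DESeq2 then called 6 of 8 (all but Shmt1 and Tyms, lower), beside 4060 genes in all. With all libraries these totals were 0 and 1218 genes, so calls rose over all genes and not only among the 8. Without PRM library 4 no share over all genes is given, so 2 of 8 and 6 of 8 are not read as particular to these genes.

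**Figure D1:**
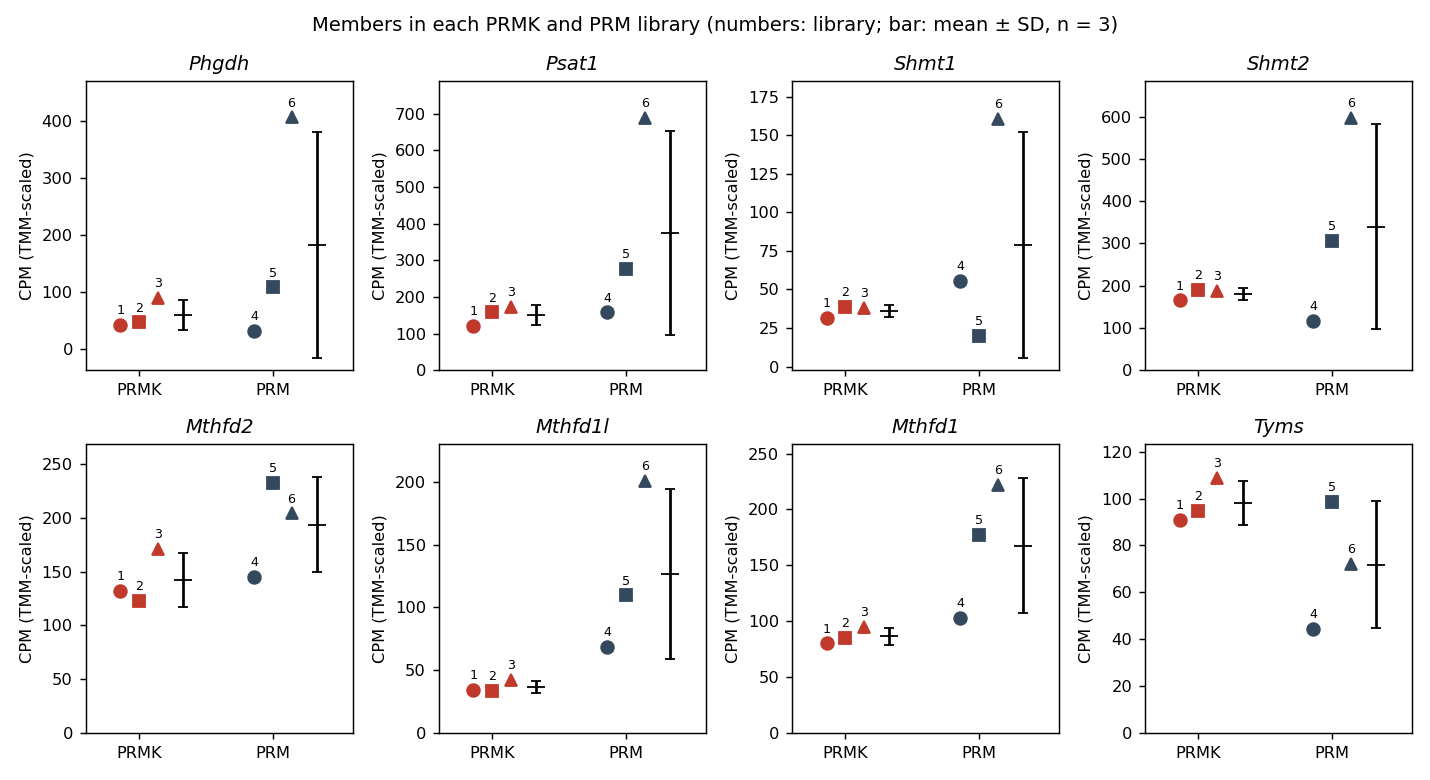
CPM (TMM-scaled, vertical axis) of the 8 genes in each PRMK (red, left) and PRM (blue, right) library. Numbers give the library, and the black bar is the mean with SD (n = 3). PRMK libraries of Mthfd1l and Mthfd1 lie below all PRM libraries, and PRM library 6 is the highest for Phgdh, Psat1, Shmt1, Shmt2, Mthfd1l and Mthfd1.

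Phgdh was at 41.0, 45.9 and 89.0 CPM in PRMK, against 30.8, 107 and 405 CPM in PRM. The groups overlap, since PRM library 4 held the lowest of the 6 levels and PRM library 6 by far the highest. The log2 fold change was -1.63 (SE 0.90; edgeR adjusted p = 0.396), and -0.23 without PRM library 6.

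Psat1 was at 121, 158 and 172 CPM in PRMK, against 158, 277 and 688 CPM in PRM. PRM library 4 lay within the PRMK range, and both other PRM libraries lay above it. The log2 fold change was -1.32 (SE 0.54; edgeR adjusted p = 0.292), and -0.53 without PRM library 6. Both serine synthesis genes thus had their lowest PRM value in library 4 and their highest in library 6. Psph, which encodes the final enzyme of serine synthesis, was at 14.9, 11.6 and 17.2 CPM in PRMK and at 5.49, 24.1 and 95.4 CPM in PRM, in the same order of the PRM libraries. However, Psph lies on chromosome 5, whose genes were low as a whole in PRM library 4 (median log2 level -0.88 relative to the other libraries). The part of chromosome 5 in the Psph value of that library was not tested.

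Shmt1, the cytosolic serine hydroxymethyltransferase, was at 31.5, 38.4 and 38.1 CPM in PRMK, against 55.7, 19.6 and 161 CPM in PRM. Unlike most of the 8 genes, it had its lowest PRM level in library 5. The log2 fold change was -1.12 (SE 0.71; edgeR adjusted p = 0.449), and -0.06 without PRM library 6. Shmt2, the mitochondrial form, was at 165, 190 and 188 CPM in PRMK, against 116, 307 and 597 CPM in PRM. The PRMK values lie inside the range of the PRM values. Its log2 fold change was -0.91 (SE 0.55; edgeR adjusted p = 0.436), and -0.22 without PRM library 6.

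Mthfd1l encodes the mitochondrial synthetase that releases formate, and it showed the largest fold change of the 8. It was at 34.1, 33.5 and 42.4 CPM in PRMK, against 68.5, 109 and 201 CPM in PRM, so that the groups stay apart. The means were 36.6 ± 4.99 CPM in PRMK and 126 ± 67.8 CPM in PRM (SD, n = 3 each). PRMK over PRM gave a log2 fold change of -1.79 with SE 0.41. The adjusted p was 0.192 in the edgeR quasi-likelihood test, 0.0156 in its likelihood ratio test and 0.00597 in DESeq2. In the authors' deposited table it was -1.74, with an adjusted p of 0.0175. It was -1.28 without PRM library 6 and -2.14 without PRM library 4, where the edgeR adjusted p was 0.0435. The DESeq2 adjusted p was 0.133, 0.0830 and 0.0501 without PRMK library 1, 2 and 3, so that the call was lost with any of these left out.

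Mthfd2, the mitochondrial dehydrogenase, was at 132, 123 and 171 CPM in PRMK, against 145, 232 and 204 CPM in PRM. PRMK library 3 lay above PRM library 4, so the groups overlap. Its log2 fold change was -0.45 (SE 0.25; edgeR adjusted p = 0.399). Mthfd1, which encodes the cytosolic enzyme with 3 activities, was at 80.0, 84.9 and 94.7 CPM in PRMK, against 103, 177 and 222 CPM in PRM. The groups do not overlap, with PRM library 4 the nearest to PRMK. Its log2 fold change of -0.95 (SE 0.31) had adjusted p-values of 0.234 (edgeR) and 0.0877 (DESeq2). Leaving out PRM library 4 gave -1.26 and an edgeR adjusted p of 0.0434. Leaving out PRM library 6 gave -0.69 and an adjusted p of 0.226, and edgeR did not call Mthfd1 without any library other than PRM 4.

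Tyms, the thymidylate synthase, was at 90.8, 94.7 and 109 CPM in PRMK, against 44.3, 98.5 and 72.2 CPM in PRM. PRM library 5 lay inside the PRMK range and the other 2 PRM libraries below it. The log2 fold change was 0.45 (SE 0.31; edgeR adjusted p = 0.488), and 0.16 without PRM library 4. In PRM library 4 the 655 genes of chromosome 5 measured at 10 CPM or more had a median log2 level of -0.88 relative to the other 5 libraries, and 92.2% of them lay below 0. Tyms lies on chromosome 5 and was at -1.04 on this scale in that library. In the other 5 libraries the chromosome 5 median was between 0.09 and 0.21. The chromosomes of the other 7 genes had medians between -0.23 and 0.21 in all 6 libraries. The part of chromosome 5 in the Tyms value was not tested.

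**Figure D2:**
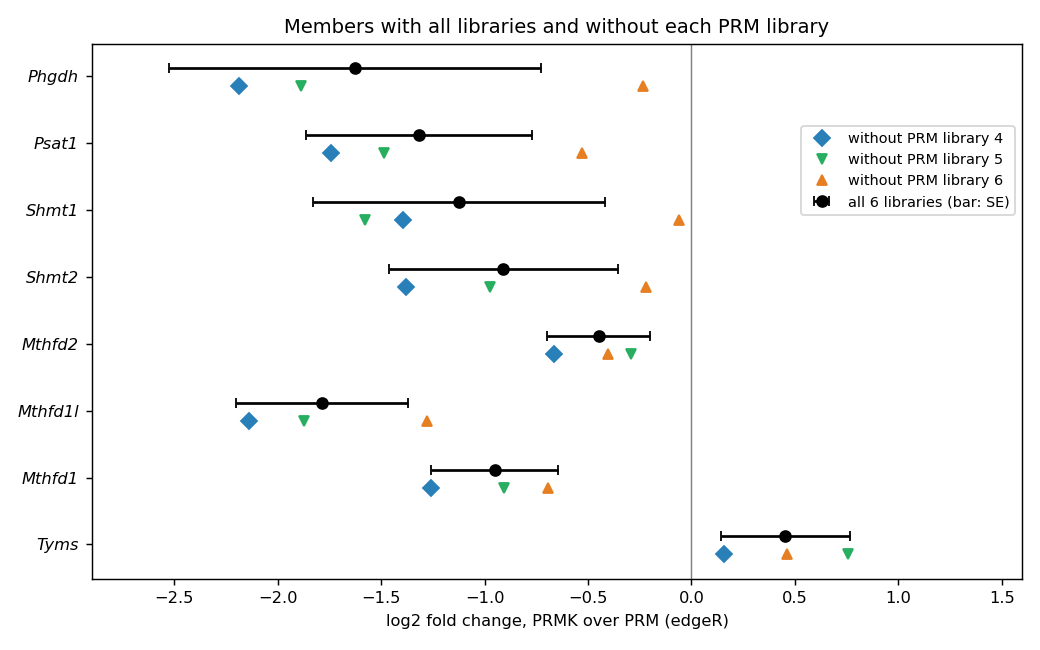
Log2 fold change of each gene, PRMK over PRM (horizontal axis; edgeR), with all 6 libraries (black, bar: SE) and without PRM library 4, 5 or 6. Without library 6, Phgdh, Shmt1 and Shmt2 lie between -0.23 and -0.06, while Mthfd1l stays at -1.28.

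The summed level of the 8 genes was 695, 768 and 904 CPM in PRMK, against 721, 1329 and 2551 CPM in PRM. Only PRM libraries 5 and 6 thus lay above PRMK, and PRM library 4 lay inside the PRMK range. PRM libraries 5 and 6 are also those low in Lyz2 and Cd68, and the part of immune cells in the sums was not tested. Myc, which all these tumours express from a plasmid, was at 273, 312 and 205 CPM in PRMK and at 1139.8, 2306 and 2059 CPM in PRM, with no overlap. Its log2 fold change was -2.80 (SE 0.36; edgeR adjusted p = 0.158). Mycl, a related factor, was at 205, 261 and 268 CPM in PRMK, against 92.2, 24.2 and 18.5 CPM in PRM. Meis2 averaged 208 ± 66.5 CPM in PRMK and 6.54 ± 9.30 CPM in PRM, with no overlap (DESeq2 adjusted p = 2.2e-04). Atf4 was at 441 ± 29.5 CPM in PRMK and 308 ± 121 CPM in PRM (SD, n = 3 each), with overlapping libraries. The part of these factors in the levels of the 8 genes was not tested.

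Genes that surround the 8 in the pathway were read from lists of other folate genes, other serine and glycine genes, nucleotide synthesis genes and ATF4 response genes. None was called by edgeR, as in the table as a whole. Among 12 nucleotide synthesis genes tested, 12 lay below 0 (background 51.4% of all genes), with a median log2 fold change of -0.71. DESeq2 called 4, all lower (background 4.86% called lower), and 6 had no overlap, lower (background 14.6%). Pfas, an enzyme of purine synthesis, was at 67.5, 79.2 and 65.8 CPM in PRMK, against 152, 263 and 171 CPM in PRM (log2 fold change -1.46, SE 0.26; adjusted p = 0.190 by edgeR, 2.24e-04 by DESeq2). Gart, a purine enzyme that uses formyl folate, was at 127, 129 and 139 CPM in PRMK, against 205, 328 and 286 CPM in PRM. Its adjusted p was 0.00360 by DESeq2. Dctd, which supplies the substrate of TYMS, was at 11.9, 16.4 and 6.38 CPM in PRMK, against 25.0, 68.4 and 66.7 CPM in PRM, with an adjusted p of 0.00420 by DESeq2.

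Of 12 other folate genes tested, 7 lay below 0 (background 51.4%) and 5 above, with a median of -0.26. DESeq2 called 2, both lower (background 4.86% called lower). These were Fpgs, which retains folate in cells, and Slc19a1, the reduced folate carrier. Fpgs was at 19.3, 20.1 and 13.6 CPM in PRMK, against 39.9, 45.5 and 55.6 CPM in PRM (log2 fold change -1.41, SE 0.27; adjusted p = 0.190 by edgeR, 2.51e-04 by DESeq2). Slc19a1 was at 26.0, 28.4 and 20.1 CPM in PRMK, against 53.3, 72.1 and 121 CPM in PRM (log2 fold change -1.72, SE 0.36; adjusted p = 0.190 by edgeR, 0.00185 by DESeq2). Ggh, which shortens folate chains, was at 17.9 ± 2.09 CPM in PRMK and 9.23 ± 3.83 CPM in PRM, with no overlap (DESeq2 adjusted p = 0.151). These 3 were named for their low p in the list. Among all 12, 3 were lower without overlap (background 14.6%), Slc25a32 being the other, and 2 were higher without overlap (background 15.1%), Aldh1l1 being the other. Those 2 names were chosen after their values were seen.

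Of 10 other serine and glycine genes tested, 7 lay below 0 (background 51.4%) and 3 above, with a median of -0.38. Neither edgeR nor DESeq2 called any. Dld, a shared subunit of the glycine cleavage system, was at 100, 103 and 104 CPM in PRMK, against 129, 173 and 169 CPM in PRM. Sfxn1, the mitochondrial serine carrier, was at 132, 170 and 108 CPM in PRMK, against 193, 376 and 224 CPM in PRM. Gcsh, another part of glycine cleavage, was at 15.3, 19.8 and 13.2 CPM in PRMK, against 15.3, 53.0 and 85.8 CPM in PRM. The first 2 show no overlap between the groups, while the groups overlap in Gcsh. Among the 10, 2 were lower without overlap, near the 14.6% of all genes, and 0 were higher (background 15.1%).

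Of 12 ATF4 response genes, 8 lay below 0 (background 51.4%) and 4 above, with a median of -0.61. DESeq2 called 1, a share near the 8.76% of all genes. It was Slc7a5, an amino acid carrier, at 142, 180 and 137 CPM in PRMK, against 508, 489 and 641 CPM in PRM (log2 fold change -1.83, SE 0.22; adjusted p = 0.158 by edgeR, 1.54e-10 by DESeq2). Pycr1, of proline synthesis, was at 23.1 ± 5.08 CPM in PRMK and 47.2 ± 14.6 CPM in PRM, with no overlap. Chac1, a glutathione-degrading enzyme, lay on the other side, at 32.8 ± 10.5 CPM in PRMK and 10.8 ± 5.43 CPM in PRM, with no overlap. Neither was called by DESeq2. Among the 12, 2 were lower without overlap (background 14.6%) and 2 were higher without overlap (background 15.1%), near the shares of all genes. Of 10 proliferation genes, 8 lay below 0 (background 51.4%) with a median of -0.23, and DESeq2 called 1, also near the 8.76% of all genes. It was Bub1, a spindle checkpoint kinase, at 47.8, 44.2 and 52.4 CPM in PRMK, against 66.2, 126 and 124 CPM in PRM (log2 fold change -1.13, SE 0.29; DESeq2 adjusted p = 0.0242). Their summed level was 3685 to 3784 CPM in PRMK and 3043 to 4788 CPM in PRM.

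For each of the 8 genes, the genes with the most similar pattern were sought by the root mean square difference of log2 CPM, centred within each table, over 12 libraries and 9173 genes. This likeness is a description, and all genes share the same libraries. Psph was nearest to Phgdh, at 0.266, where the median gene was at 0.918. Psph lies on chromosome 5 and Phgdh on chromosome 3. Pdia5 was nearest to Psat1 (0.126), Apobec3 to Shmt1 (0.163), Map3k20 to Shmt2 (0.116) and Cul2 to Mthfd2 (0.115). Adss was nearest to Mthfd1l (0.129) and Brix1 to Mthfd1 (0.0583). Tada2b (0.0817) and Bud31 (0.114) were nearest to Tyms, and both lie on chromosome 5 as Tyms does. The second nearest of the others were Swap70 for Phgdh, Eno1b for Psat1, Fam111a for Shmt1, Slc25a37 for Shmt2, Ttc9c for Mthfd2, Ifrd2 for Mthfd1l and Washc4 for Mthfd1. Among the 8 themselves, Psat1 and Shmt2 were the closest pair over the 6 PRMK and PRM libraries, at 0.297.

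The sgMeis2 and sgScramble libraries address whether a guide against Meis2 alters these transcripts in PRMK tumours. Meis2, a homeobox factor, was at 219, 224 and 137 CPM in sgMeis2, against 259, 227 and 233 CPM in sgScramble. It was lower in all 3 sgMeis2 libraries than in any sgScramble library, but by little in libraries 1 and 2. sgMeis2 library 3 stands apart from the others: the median over genes of the chi-square between the counts of 2 libraries was 10.3 to 12.5 in every pair with it, and 0.829 to 2.12 in all other pairs. None of the 8 genes was called (background 0% of 16260 genes by edgeR, where 760 had an unadjusted p under 0.05, 0.135% by DESeq2 and 0.191% by the likelihood ratio test). The fold change lay above 0 in 4 (background 50.8%) and below 0 in 4 (background 49.2%). The edgeR adjusted p of the 8 was 0.754 to 0.951.

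The values of sgMeis2 libraries 1 and 2 were close to those of sgScramble libraries 2 and 3 for all 8 genes, and sgMeis2 library 3 departed in 4. Phgdh was at 189, 193 and 314 CPM in sgMeis2, against 199, 183 and 189 CPM in sgScramble (log2 fold change 0.29, SE 0.20; 0.0019 without library 3). Mthfd1l was at 65.7, 63.9 and 89.5 CPM in sgMeis2, against 67.0, 64.3 and 61.2 CPM in sgScramble (0.19, SE 0.14; 0.010 without it). Both are high in library 3 alone. Tyms was at 133, 133 and 89.1 CPM in sgMeis2, against 138, 135 and 139 CPM in sgScramble (-0.21, SE 0.15; -0.05 without library 3). Every sgMeis2 value of Tyms lay below every sgScramble value, beside 7.92% of all genes. Mthfd2 was at 221, 222 and 142 CPM in sgMeis2, against 284, 224 and 221 CPM in sgScramble (-0.32, SE 0.19; -0.14 without library 3). For Mthfd2, sgScramble library 1 also stood apart, above its group.

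The other 4 genes differed little. Psat1 was at 422, 420 and 434 CPM in sgMeis2, against 430, 405 and 405 CPM in sgScramble (log2 fold change 0.04, SE 0.08). Shmt2 was at 425, 432 and 408 CPM in sgMeis2, against 461, 413 and 407 CPM in sgScramble (-0.02, SE 0.09). Mthfd1 was at 114, 111 and 128 CPM in sgMeis2, against 104, 114 and 118 CPM in sgScramble (0.07, SE 0.09). Shmt1 was at 55.6, 55.6 and 51.8 CPM in sgMeis2, against 51.7, 55.7 and 61.4 CPM in sgScramble (-0.05, SE 0.09). The groups overlap in all 4. Of the surrounding lists, edgeR and DESeq2 called 0 genes. The 12 ATF4 response genes had 10 below 0 with a median log2 fold change of -0.44, and their sum was 1456, 1472 and 1398 CPM in sgMeis2, against 2091, 1526 and 1428 CPM in sgScramble. The high sum is that of sgScramble library 1 alone. The 12 nucleotide synthesis genes had a median of 0.02, the 11 other folate genes tested 0.07 and the 9 other serine and glycine genes tested 0.04, all near the 0.00 of all genes. On the deposited TPM scale, sgMeis2 had Phgdh first at 34.1 ± 10.7 TPM, then Shmt2 at 29.9 ± 0.662 TPM, and Shmt1 last at 3.44 ± 0.115 TPM (SD, n = 3). The table was normalised apart from that of PRMK and PRM, so no level is compared across them.

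**Figure D3:**
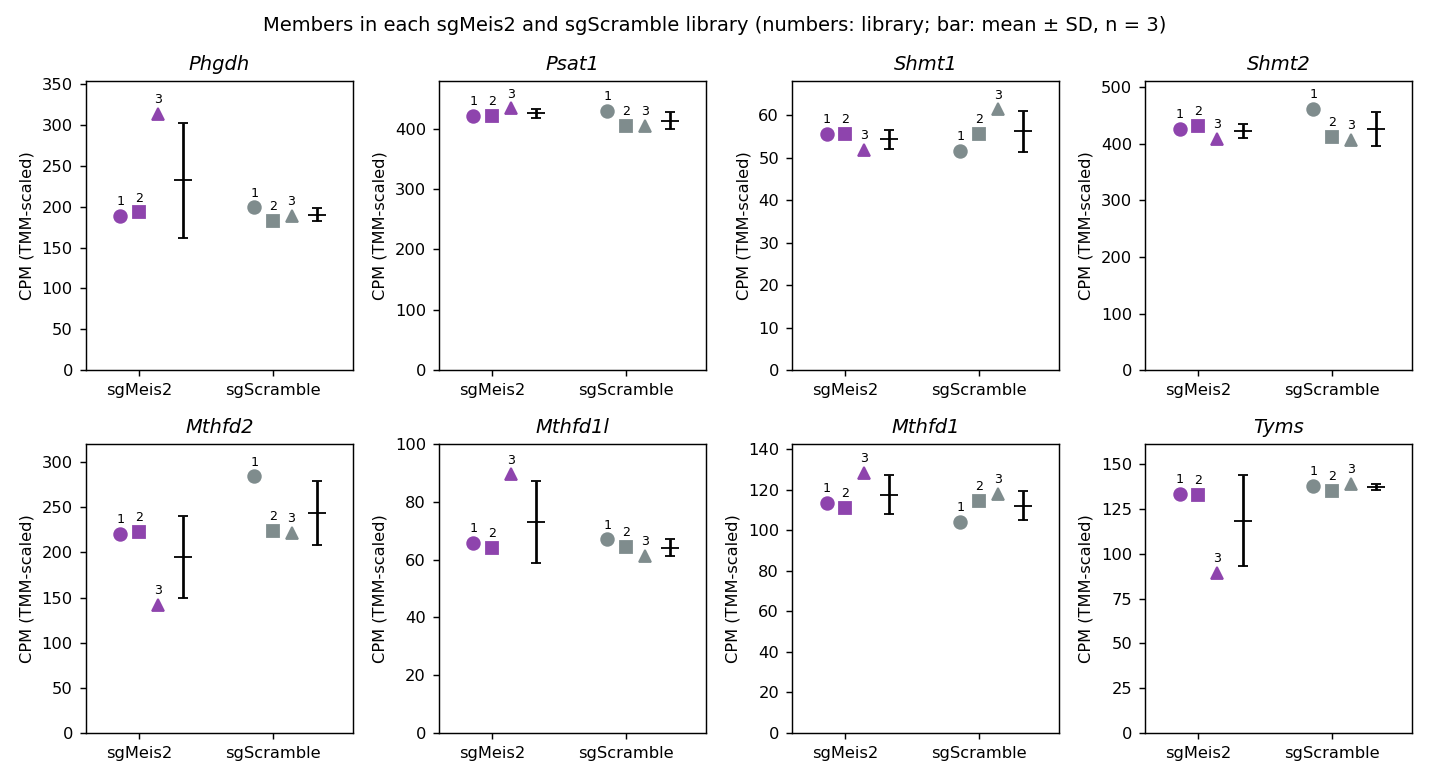
CPM (TMM-scaled, vertical axis) of the 8 genes in each sgMeis2 (purple, left) and sgScramble (grey, right) library. Numbers give the library, and the black bar is the mean with SD (n = 3). sgMeis2 library 3 is high for Phgdh (314) and Mthfd1l (89.5) and low for Mthfd2 (142) and Tyms (89.1), and sgScramble library 1 is high for Mthfd2 (284).

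Histone marks at the starts of the 8 genes were then compared, on mm10. The genes lie at chr3:98313171-98339969 (Phgdh), chr19:15905123-15925059 (Psat1), chr11:60788897-60811265 (Shmt1), chr10:127517123-127522444 (Shmt2), chr6:83305704-83326011 (Mthfd2), chr10:3972892-4167081 (Mthfd1l), chr12:76254406-76319820 (Mthfd1) and chr5:30038546-30073645 (Tyms). Mthfd1l and Mthfd1 are on the plus strand and the others on the minus strand. The start used for Mthfd2 is at 83317604, 8407 bp inside its span, and that for Mthfd1 at 76255232, 826 bp inside. H3K4me3, which marks active promoters, had a peak within 1 kb of the start of all 8 genes in both PRMK and both PRM libraries, beside 55.8% of protein-coding genes in PRMK and 55.8% in PRM. H3K4me2 did the same, beside 59.8% in PRMK and 53.7% in PRM. No test was run on the peak calls, and the peak files state no depth.

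H3K4me1, the mark of enhancers and promoter flanks and the product ascribed to KMT2C, was sparse at these starts. Shmt1 had it within 1 kb of the start in 1 of 2 PRMK libraries, 2 of 2 liver PRM libraries and 2 of 2 lung PRM libraries. Mthfd1l had it in 0 of 2 PRMK libraries, 2 of 2 liver PRM libraries and 2 of 2 lung PRM libraries. Peaks in both libraries were found at 8.31% of protein-coding genes in PRMK, 9.12% in liver PRM and 9.38% in lung PRM. A peak in both lung PRM libraries and neither PRMK library was found at 1.85% of them, and among the 8 genes at Mthfd1l. Shmt2 had it in 1 of 2 PRMK libraries and in 0 of 2 of each PRM group, so that 0 of 8 starts were gained in PRMK (background 2.83%). In liver PRM against lung PRM, 0 of 8 starts were gained (background 0.726%) and 0 were lost (background 0.452%). Phgdh, Psat1, Mthfd2, Mthfd1 and Tyms had none at the start in any library, and Psat1, Mthfd2 and Tyms none over the gene and its flanks either.

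**Figure D4:**
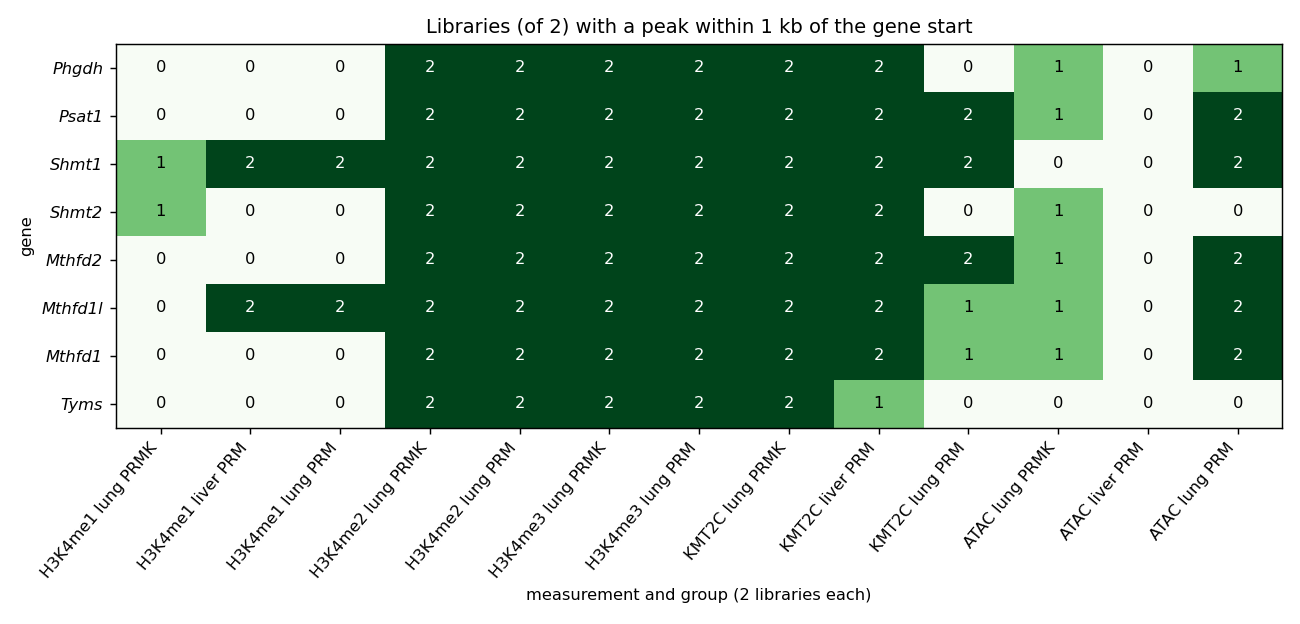
Number of libraries (of 2 per column, shown as shade and digit) with a called peak within 1 kb of the start of each gene (rows), by measurement and group (columns). H3K4me2 and H3K4me3 are at 2 throughout, H3K4me1 of Mthfd1l is at 0 in lung PRMK and 2 in both PRM groups, and KMT2C is at 2 throughout in lung PRMK.

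Mthfd1l differed in the extent of H3K4me1 and H3K4me3. Its H3K4me1 peak at the promoter flank ran from 1177 to 7096 bp after the start in PRMK library 1, and in PRMK library 2 it was split into peaks from 1399 to 3898 and from 4201 to 6507 bp. In lung PRM library 1 it ran from 315 bp before to 8231 bp after the start, and in library 2 from 523 to 8080 bp after it. PRMK library 2 had narrower H3K4me1 peaks over its whole list, with a median width of 1419 bp, against 2734 bp in PRMK library 1 and 2974 and 2944 bp in lung PRM. The edge nearest the start lay just outside the 1 kb window in both PRMK libraries and inside it in both lung PRM libraries. H3K4me3 at the start was wider in PRMK, at 4761 and 5519 bp, against 2442 and 2406 bp in PRM. It reached 3657 and 3999 bp past the start in PRMK, against 1955 and 1936 bp in PRM. The log2 ratio of widths was 1.08, at the 98.6th percentile of the 10957 starts with an H3K4me3 peak in all 4 libraries, whose median ratio was 0.07. Over all these starts, 26.4% were wider in both PRMK libraries. H3K4me2 hardly differed, at 8111 and 8518 bp in PRMK and 7916 and 7563 bp in PRM.

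Within the long Mthfd1l gene, both regions of H3K4me1 that PRMK lacked are on chromosome 10 of mm10. They lie at chr10:4056800-4064172, 83725 bp from the start, and at chr10:4156882-4160486, 183807 bp from it. Each had a peak in 0 of 2 PRMK libraries and in 2 of 2 lung PRM libraries, and the overlapping regions had one in 2 of 2 liver PRM libraries. A region at chr10:4126201-4127336 had a peak in both PRMK libraries and in neither lung PRM library. Of the 12 H3K4me1 regions over Mthfd1l and its flanks, 1 was gained (background 15.6%), 2 were lost (background 14.1%), 4 were kept in all 4 libraries (24.7% of all regions) and 5 were mixed. The share lost is near that of all regions. In liver PRM against lung PRM, 8 of 11 were kept (53.3% of all regions), 0 were gained (background 4.11%) and 0 were lost (background 1.02%).

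Shmt2 had some regions called in PRMK that PRM lacked. Over all regions, 15.6% were gained in PRMK for H3K4me1 and 8.07% for H3K4me2. An H3K4me1 region next to its start, chr10:127519415-127522473, had a peak in 2 of 2 PRMK libraries, in 0 of 2 lung PRM libraries and in 0 of 2 liver PRM libraries. It ran from 29 bp before to 3029 bp after the start in PRMK library 1 and from 1257 to 2292 bp after it in library 2. The total signal of the peak was 25086 in PRMK library 1 and 5636 in library 2. The region was not gained when each list was cut to the peaks above its median signal. An H3K4me2 region upstream, chr10:127523947-127530578, was present in both PRMK libraries and in neither PRM library, and it reaches the neighbouring gene Nxph4. PRM library 1 had an H3K4me3 peak there, and neither PRMK library did. H3K4me3 at the start was 15926 and 3867 bp wide in PRMK, against 3371 and 3058 bp in PRM. Over all 10957 starts compared, 26.4% were wider in both PRMK libraries. The peak of PRMK library 1 continues through the neighbouring gene Ndufa4l2, where the other 3 libraries have a separate peak.

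**Figure D5:**
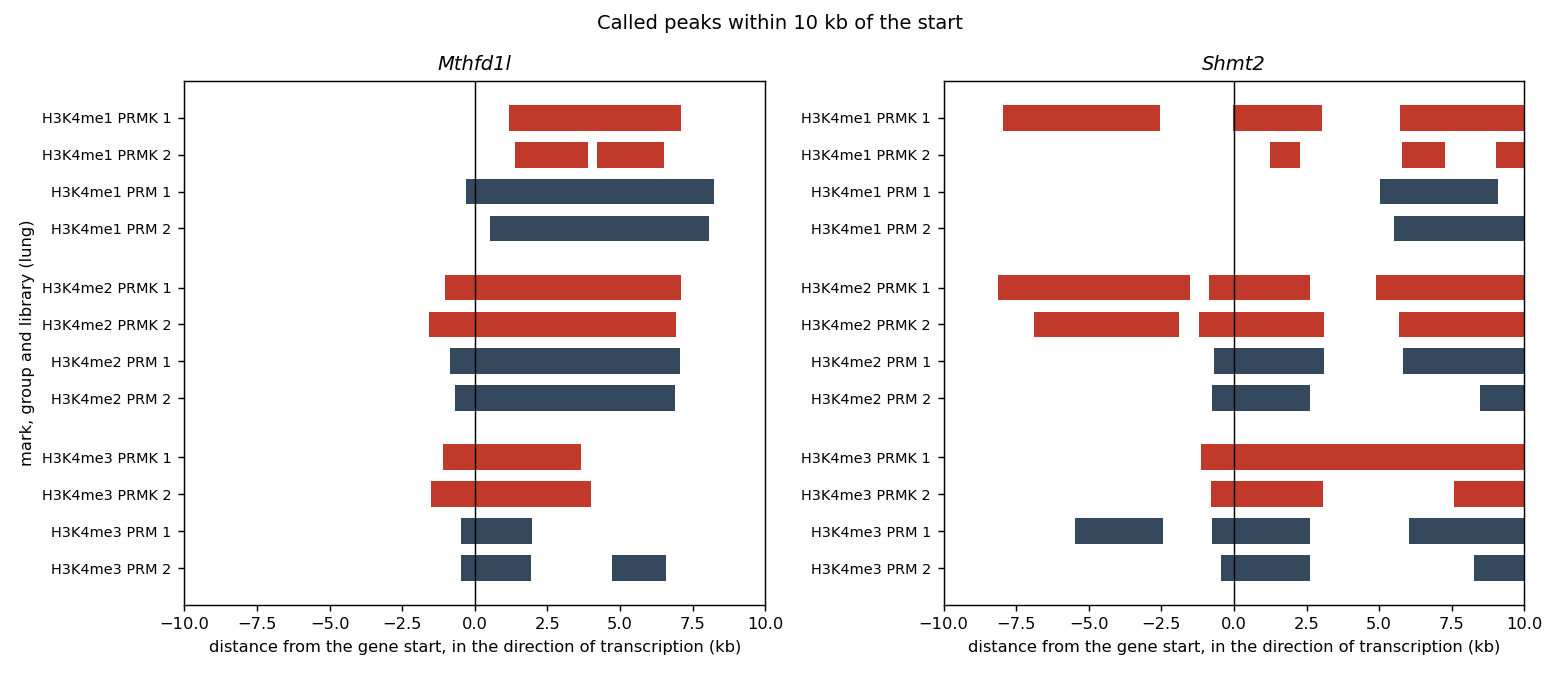
Called peaks of H3K4me1, H3K4me2 and H3K4me3 (bars) within 10 kb of the start of Mthfd1l and Shmt2, by distance from the start in the direction of transcription (horizontal axis, kb), in each lung PRMK (red) and lung PRM (blue) library. At Mthfd1l the H3K4me1 bars begin 1177 and 1399 bp after the start in PRMK and the H3K4me3 bars end 3657 and 3999 bp after it, against 1955 and 1936 bp in PRM.

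Mthfd1 had no H3K4me1 peak in any of the 4 PRM libraries over the gene and its flanks, and 3 peaks in each PRMK library. Both regions found in both PRMK libraries, chr12:76286943-76290516 and chr12:76306184-76307918, lie inside the gene, 31711 and 50952 bp from its start. Taken over all 8 genes, 4 of 21 H3K4me1 regions were gained in PRMK (background 15.6% of 51791 regions) and 2 were lost (background 14.1%). For H3K4me2, 1 of 15 regions was gained (background 8.07%) and 0 were lost (background 1.36%). For H3K4me3, 0 of 13 were gained (background 1.26%) and 0 were lost (background 3.20%), and 11 were kept (55.3% of all regions). In liver PRM against lung PRM, 0 of 15 H3K4me1 regions were gained (background 4.11%) and 0 were lost (background 1.02%). The shares gained and lost are near those of all regions, while the share of H3K4me3 regions kept is above that of all regions. The H3K4me3 regions here include the starts of all 8 genes, while the 55.3% is not limited to gene starts. The 2 shares are therefore not like for like. When each list was cut to the peaks above its median signal, 0 H3K4me1 regions of the 8 genes were gained in PRMK and 2 were lost.

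The widths of the other H3K4me3 peaks at the starts overlapped between the groups for 6 of 8 genes. Over all 10957 starts, 26.4% were wider and 13.2% narrower in both PRMK libraries, so overlap is also the most frequent outcome there. For Phgdh the widths were 6235 and 5158 bp in PRMK, against 6243 and 5418 bp in PRM. For Tyms they were 2942 and 3077 bp in PRMK, against 2992 and 2922 bp in PRM. H3K4me2 peaks at the start were wider in both PRMK libraries for 6 of 8 genes, beside 29.7% of 10986 starts, with a median log2 ratio of 0.09 over all starts. For Phgdh, the largest of these differences, they were 5982 and 6905 bp in PRMK, against 4991 and 4984 bp in PRM. Its log2 ratio of 0.37 lay at percentile 81.5 of all starts. The ratios of Mthfd1l, Shmt1, Psat1, Tyms and Mthfd1 lay at percentiles 51.5 to 66.2. The size of the difference thus does not set most of these 6 genes apart from other starts.

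KMT2C peaks go against the labels in number, since the PRMK lists held 187682 and 134561 peaks, against 9949 and 16681 in lung PRM, although PRMK carries the Kmt2c guide. All 8 genes had a KMT2C peak within 1 kb of the start in both PRMK libraries (background 48.8% of protein-coding genes). Starts gained in PRMK were 3 of 8, Phgdh, Shmt2 and Tyms (background 19.7%). In lung PRM, Psat1, Shmt1 and Mthfd2 had one in both libraries (background 20.9%), Mthfd1l and Mthfd1 in 1 of 2, and Phgdh, Shmt2 and Tyms in 0 of 2. In liver PRM, whose lists held 65201 and 113129 peaks, 7 of 8 had one in both libraries (background 45.5%) and Tyms in 1 of 2. Of 105 KMT2C regions over the 8 genes, 19 were gained in PRMK (background 20.8%) and 0 were lost (background 0.259%). Phgdh held 20 of the 105 regions, of which 7 were gained and 13 were mixed. Of 42 regions, 8 were gained in liver PRM against lung PRM (background 21.5%) and 0 were lost (background 0.127%), and 2 of 8 starts, Phgdh and Shmt2, were gained there (background 15.6%). The part of list size in these counts was not tested.

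ATAC lists were too uneven for a comparison of groups. They held 593 and 54201 peaks in PRMK, 345 and 141 in liver PRM and 64596 and 19834 in lung PRM. The starts with a peak numbered 0 and 6 of 8 in PRMK, 0 and 0 in liver PRM and 6 and 5 in lung PRM. Psat1, Shmt1, Mthfd2, Mthfd1l and Mthfd1 were open in both lung PRM libraries (background 32.2% of protein-coding genes, against 1.76% in both PRMK libraries), Phgdh in 1 and Shmt2 in neither. Shmt2 had a peak at its start in PRMK library 2 alone. Tyms had no ATAC peak in any library, although H3K4me2 and H3K4me3 marked its start in all 4 lung libraries of each mark.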

How the data were processed

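RNA was measured in 12 libraries and chromatin in 26. The members and gene lists were chosen with earlier results of these data known. Per the submitters' processing notes, RNA reads were aligned with STAR 2.6.0a to GRCm38, those of ATAC with Bowtie2 2.2.1 to mm10, and those of CUT&Tag with Bowtie2 to mm10, where SEACR called peaks. The control used for calling, the ATAC caller and the strand setting of gene counting are not given in the sources used here, so reads of overlapping transcripts (Gm16074, Gm25515 and Gm40591 within Mthfd1l, Gm40443 and Gm40444 within Mthfd1) cannot be told apart from the gene.

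The deposited tables give raw counts per gene. The authors' table of sgMeis2 also gives TPM per library, used here for levels only. The 6 columns headed tpm in the PRMK table are not on that scale and were not used. The authors' log2 fold changes and adjusted p-values are in the same deposited tables. Each deposited CUT&Tag peak carries its total and highest signal, and each deposited ATAC peak a score, both the authors' own.

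Counts were tested in R 4.3.3 with edgeR 4.0.16 (quasi-likelihood, TMM, its filter on low counts, adjusted p under 0.05), over 13914 and 16260 genes, each table on its own. DESeq2 1.42.0, the edgeR likelihood ratio test, RLE size factors, no filter, and each library left out were alternatives. Of 24781 genes with no symbol in the authors' table of sgMeis2, 24552 received one by gene ID. Shared replicate numbers did not pair these samples. Total counts set the depth, and no interval is given for single counts. Named genes were the 8 members, up to 3 of each gene list (mean of 1 CPM or more, lowest edgeR p in PRMK against PRM), and the 2 nearest in pattern (mean of 10 CPM or more). Psph and Atf4 values, and the choice of printed sequences, came after their values were seen.

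Peaks were handled with Python 3.11.15, numpy 2.4.6 and pandas 2.3.3. For each comparison the 4 lists were merged. Gained or lost regions are those with a peak (1 bp of overlap or more) in both libraries of 1 group and in 0 of the other 2. Starts came from RefSeq on GRCm38.p6, with promoters found for all 8 genes. Figures were drawn with matplotlib 3.10.9. The scripts were tested on simulated data. 1 immune marker is not reported here.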

Additional observations from a re-analysis of the deposited data

How the results depend on the processing

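The direction of all 8 fold changes in PRMK against PRM held under every alternative run. Genes called there were 0 by edgeR, also with RLE size factors or no filter, 1218 by DESeq2 and 454 by the likelihood ratio test, and 1 of 8 members by each of these last. Leaving out each library in turn, edgeR called 0 to 796 genes and 0 to 2 members, the highest without PRM library 4 (Mthfd1l and Mthfd1). DESeq2 with each library left out, added after seeing the data, called 215, 498 and 352 genes without PRMK library 1, 2 and 3, with 0 members each, and 4060, 1449 and 2165 genes without PRM library 4, 5 and 6, with 6, 2 and 1 members. In sgMeis2 against sgScramble, DESeq2 called 22 genes and the likelihood ratio test 31, and leaving out each library gave 0 to 46 by edgeR and 0, 4, 5, 17 or 72 by DESeq2, the highest without sgMeis2 library 3. No member was called there. Fold changes near 0 turned sign without 1 library: by edgeR Shmt2 to 0.0023 and Mthfd1 to -0.0030 without sgMeis2 library 3, Shmt2 to 0.042 without sgScramble library 1 and Shmt1 to 0.022 without sgScramble library 3 (ranges -0.047 to 0.042 for Shmt2, -0.0030 to 0.11 for Mthfd1 and -0.11 to 0.022 for Shmt1), and by DESeq2 Shmt2 to 0.0053 and 0.041 and Shmt1 to 0.022. With the replicate number as a block 0 genes and 0 members were called; deviations of same-numbered libraries correlated at 0.0127, -0.00226 and 0.0335, and sgMeis2 library 2 correlated best with sgScramble library 1.

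Of regions gained or lost at the 8 genes, the peaks above the median signal gave 2 for H3K4me1 and 2 for H3K4me2 in PRMK, 11 for KMT2C in PRMK, 1 for H3K4me1 in liver PRM and 3 for KMT2C in liver PRM. A cover of at least 0.5 of a region gave 1 for H3K4me3 and 12 for KMT2C in PRMK, and gene bodies with no flanks gave 0 for H3K4me2. Leaving out each library gave 7 to 11 (H3K4me1), 1 to 2 (H3K4me2), 0 to 1 (H3K4me3) and 19 to 69 (KMT2C) in PRMK, and 0 to 2 (H3K4me1) and 9 to 22 (KMT2C) in liver PRM. The cause of these shifts was not tested. With 3 libraries against 3, and PRM libraries unlike each other, differences of the size seen for most members were not separable from the spread, and peak calls without depth show presence, not amount.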
